A study of Mus musculus with 12 samples.

Results

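Leucine, isoleucine and valine, the branched-chain amino acids, are broken down inside mitochondria, and 10 genes of that pathway were followed here in fetal mouse livers that lacked or carried the nuclear receptor PPARα (*Ppara*). The genes were listed by name for their place in the pathway: *Bckdha*, *Bckdhb* and *Bckdk* for the branched-chain 2-oxoacid dehydrogenase and its kinase, *Ivd*, *Mccc1* and *Auh* for leucine, and *Acad8*, *Hibch*, *Hibadh* and *Aldh6a1* for valine. All 10 were among the 19938 genes measured. Levels came from Affymetrix MoGene 1.0 ST arrays, 1 array per liver, as log2 signals in the authors' RMA table, so a difference of 1 is a doubling. Whole livers were taken by cesarean section at E19.5, just before birth, from 6 *Ppara*-/- and 6 *Ppara*+/+ fetuses. Both genotypes came from matings of *Ppara*+/- parents, so that knockout and wild-type fetuses could share a uterus, and the null allele was present in every cell from conception. The labels give the strain as SV129, whereas the study's methods describe a C57BL/6 background. Per those methods the RNA samples came from 3 litters for each genotype, so some livers of a genotype share a litter, but the labels do not say which. Differences are given as *Ppara*-/- minus *Ppara*+/+, and a gene was called where the limma p-value, adjusted by the Benjamini-Hochberg method over all 19938 genes, was under 0.05. Values are means ± SD of 6 livers unless stated otherwise.

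All 3 amino acids first lose their amino group to become branched-chain 2-oxoacids, which the branched-chain 2-oxoacid dehydrogenase then commits to breakdown by forming acyl-CoA esters. From there the routes part: leucine carbons end as acetyl-CoA and acetoacetate, valine carbons as propionyl-CoA, and isoleucine carbons as both. In adult mammals the liver holds little of the first, transaminating step and much of the dehydrogenase. PPARα is best known for driving fatty acid oxidation, which uses related acyl-CoA dehydrogenases and hands its electrons to the same carriers.

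Of the 10 genes, 2 were lower in *Ppara*-/- livers (*Hibch* and *Bckdhb*), 0 were higher and 8 were not called, where 3.82% of all genes tested were lower and 3.42% higher. *Hibch*, the hydrolase of the valine route, differed by -0.44 and was the only member whose 6 *Ppara*-/- values were all under the lowest *Ppara*+/+ value, an arrangement found in 2.29% of all genes. No member showed the opposite arrangement, which 1.3% of all genes did. Signs were mixed, with 4 negative and 6 positive differences and a median of 0.04, beside a median of 0.01 over all genes. Among the 8 genes not called, no difference exceeded 0.13 in size, and their 95% intervals together reached from -0.23 to 0.27. The members were bright on the arrays, at percentiles 65.6 to 98.3 of the mean signal of all genes, and their SDs within a genotype were 0.04 to 0.19. Calls were more common among bright genes. With genes below the 50th percentile of mean signal left out, 1061 of 9969 genes were lower and 951 higher, and the same 2 members were lower.

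**Figure D1:**
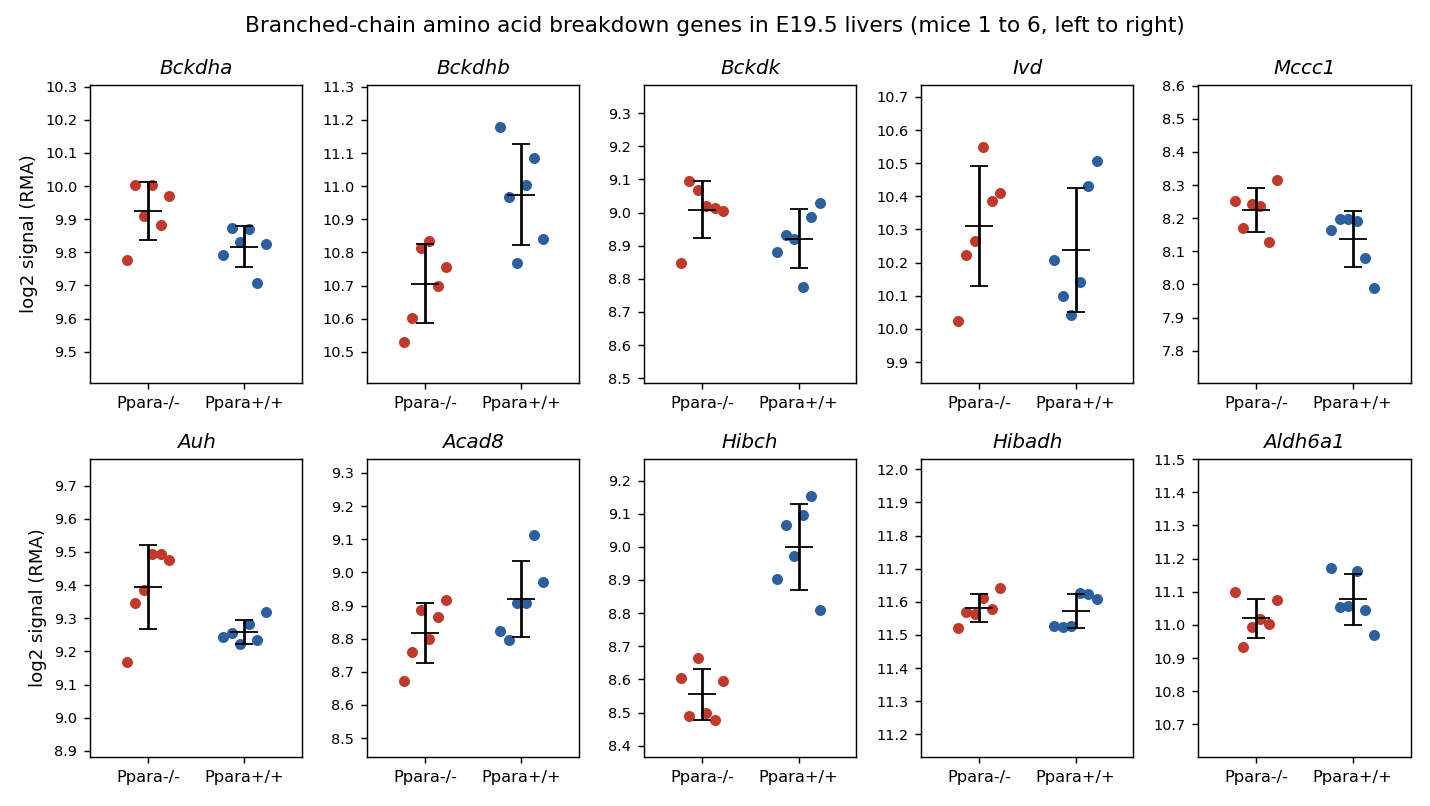
Log2 RMA signal (y axis, each panel spanning the same height) of the 10 genes in *Ppara*-/- and *Ppara*+/+ livers. Each point is 1 liver, mice 1 to 6 from left to right, and the bars show the mean and SD of 6 livers. The 6 *Ppara*-/- livers lie between 8.48 and 8.67 for *Hibch*, below all *Ppara*+/+ livers, and 4 of 6 do so for *Bckdhb*. In the other 8 panels the genotypes overlap.

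Facts of the whole set bear on these values. Counts of called markers below stand beside 3.82% lower and 3.42% higher over all genes. *Ppara* itself read 9.66 to 9.94 in *Ppara*-/- livers and 10.71 to 10.95 in *Ppara*+/+ livers (difference -1.01, adjusted p = 3.6e-08), although the sources used here do not say whether its probeset lies in the disrupted part of the gene. On the first principal component of all genes *Ppara*-/- mouse 1 stood apart from its group, at -1.9 against 9.8 to 20.9 in the other *Ppara*-/- livers, with *Ppara*+/+ livers at -21.1 to 3.3. By *Xist* and Y-linked genes, which also made up a sex score per liver, 5 of 6 *Ppara*-/- and 3 of 6 *Ppara*+/+ fetuses were female, and all 4 males carried low animal numbers. Of 7 measured hepatocyte markers 1, *Tat*, was lower and 0 higher, and the differences of the list ran from -1.61 to 0.05 with a median of 0.01. Their sums on the linear scale, which the brightest genes dominate, were 56453 to 59552 in *Ppara*-/- livers and 56648 to 61762 in *Ppara*+/+ livers. None of 8 erythroid markers was called, and they summed to 21481 to 23436 in *Ppara*-/- livers and 19540 to 22836 in *Ppara*+/+ livers. Of 7 macrophage markers 2 were higher, *Csf1r* at 0.23 and *Cd5l* at 0.40, while 3 of the 7 differences were negative, down to -0.25. The list summed to 4290 to 4886 in *Ppara*-/- livers and 4079 to 4405 in *Ppara*+/+ livers. The part of macrophage markers in the members' values was not tested. The sums of the granulocyte, megakaryocyte, endothelial, and stellate and biliary markers also overlapped, with *Des* (lower) the only gene of these lists called. No marker stood at 0, since RMA values have no true 0. In whole liver, fewer cells of a type and less RNA per cell cannot be told apart.

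The branched-chain 2-oxoacid dehydrogenase is built from an E1 decarboxylase of α and β subunits, an E2 transacylase and an E3 dehydrogenase. *Bckdhb*, the E1 β subunit, read 10.53, 10.60, 10.81, 10.83, 10.70 and 10.76 in *Ppara*-/- mice 1 to 6, against 11.18, 10.97, 10.77, 11.01, 11.09 and 10.84 in *Ppara*+/+ mice 1 to 6. *Ppara*-/- mice 1 and 2 were the lowest, and *Ppara*+/+ mouse 3 fell among the higher *Ppara*-/- livers, which left 4 of 6 *Ppara*-/- values under the lowest *Ppara*+/+ value. The means were 10.71 ± 0.12 in *Ppara*-/- livers and 10.97 ± 0.15 in *Ppara*+/+ livers, a difference of -0.27 (SE 0.07, 95% interval -0.43 to -0.11) or 1.20-fold lower, with adjusted p = 0.04 by limma. This call was close to the threshold. Across 26 other limma settings on 11 or 12 livers it held in 16, with adjusted p of 0.011 to 0.097 and differences of -0.31 to -0.23. Leaving out *Ppara*-/- mouse 1 (0.053), 2 (0.097), 5 (0.083) or 6 (0.067) ended it, as did leaving out *Ppara*+/+ mouse 1 (0.089), 2 (0.075), 4 (0.084) or 5 (0.08), and, among others, fitting the mean level of erythroid markers as a covariate (0.054).

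*Bckdha*, the α subunit of the same E1 tetramer, was not called. It read 9.78, 10.003, 9.91, 10.004, 9.88 and 9.97 in *Ppara*-/- mice 1 to 6, against 9.79, 9.87, 9.83, 9.87, 9.71 and 9.83 in *Ppara*+/+ mice 1 to 6. All *Ppara*-/- livers but mouse 1 lay above all *Ppara*+/+ livers, yet the step was small, at 0.11 (95% interval 0.0026 to 0.21, adjusted p = 0.23, and 0.067 without *Ppara*-/- mouse 1). *Bckdk*, the kinase that switches the complex off by phosphorylating the α subunit, was not called (difference 0.09, 95% interval -0.03 to 0.20, adjusted p = 0.40). It spanned 8.85 to 9.10 in *Ppara*-/- livers and 8.77 to 9.03 in *Ppara*+/+ livers. The overlap came from *Ppara*-/- mouse 1 (8.85, the others 9.01 to 9.10) and *Ppara*+/+ mouse 6 (9.03, the others 8.77 to 8.99). Without *Ppara*-/- mouse 1 the difference was 0.12 (adjusted p = 0.15). The E2 subunit *Dbt*, which forms the core of the complex, was higher. It read 11.06 to 11.20 in *Ppara*-/- livers, all above the 10.83 to 11.01 of *Ppara*+/+ livers (difference 0.18, SE 0.04, adjusted p = 0.02), and it held in 25 of 26 other limma settings, the exception being the sex score as a covariate (0.059). *Dld*, the E3 subunit shared with the pyruvate and 2-oxoglutarate dehydrogenases, differed by -0.09 and the phosphatase *Ppm1k*, which switches the complex on, by -0.08, neither called. For mRNAs of 1 complex the E1 β and E2 subunits thus differed in opposite directions, at -0.27 and 0.18.

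The promoter of *Bckdhb* is printed to show what lies upstream of the lower subunit. The sequence is from RefSeq (GRCm38.p6), the 250 bases before an annotated start, 5′ to 3′ on the plus strand at chr9:83924887-83925136. Capitals mark AGGTCA, the core motif that PPARα and its partner RXR bind in tandem, and GGGCGG, a GC box bound by Sp1, each on either strand.
Bckdhb: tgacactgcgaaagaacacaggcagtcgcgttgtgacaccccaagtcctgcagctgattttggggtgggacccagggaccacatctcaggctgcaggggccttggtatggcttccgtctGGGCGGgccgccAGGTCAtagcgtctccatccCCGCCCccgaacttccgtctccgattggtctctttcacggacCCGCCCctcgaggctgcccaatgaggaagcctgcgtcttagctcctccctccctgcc
The 300-base window that adds the 50 bases after the start held 1 AGGTCA motif and 3 GC boxes. RefSeq lists a further *Bckdhb* start, whose window held neither. No pair of AGGTCA motifs spaced by 1 base (the DR1 arrangement, both strands) came closer than 4 mismatches in either window.

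Along the leucine route no member was called. *Ivd*, the isovaleryl-CoA dehydrogenase, varied most of all members, reading 10.02, 10.22, 10.27, 10.55, 10.39 and 10.41 in *Ppara*-/- mice 1 to 6, against 10.21, 10.10, 10.04, 10.14, 10.43 and 10.51 in *Ppara*+/+ mice 1 to 6. Low and high livers occurred in both genotypes, and the difference of 0.07 had a 95% interval of -0.13 to 0.27 (adjusted p = 0.76). *Mccc1*, the biotin-carrying subunit of methylcrotonyl-CoA carboxylase, spanned 8.13 to 8.32 in *Ppara*-/- livers and 7.99 to 8.20 in *Ppara*+/+ livers. With 4 of 6 *Ppara*-/- livers above all *Ppara*+/+ livers its difference was 0.09 (95% interval -0.02 to 0.19, adjusted p = 0.34). Its partner subunit *Mccc2*, not one of the 10, was higher, at 9.38 to 9.50 in *Ppara*-/- livers and 9.25 to 9.35 in *Ppara*+/+ livers with no overlap (difference 0.15, adjusted p = 0.029). That call held in 15 of 26 other limma settings (adjusted p of 0.0081 to 0.091). Among others, it was lost when any 1 of *Ppara*-/- mice 3 to 6 or *Ppara*+/+ mice 1 to 4 was left out (0.057 to 0.071).

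*Auh*, the 3-methylglutaconyl-CoA hydratase that also binds AU-rich RNA, turned on 1 liver. It read 9.17, 9.35, 9.38, 9.49, 9.50 and 9.48 in *Ppara*-/- mice 1 to 6, against 9.24, 9.26, 9.22, 9.28, 9.23 and 9.32 in *Ppara*+/+ mice 1 to 6. *Ppara*-/- mouse 1 lay below every *Ppara*+/+ liver and the other 5 above every one. Over all 12 livers the difference was 0.13 (95% interval 0.02 to 0.25, adjusted p = 0.18), which was not called. Without *Ppara*-/- mouse 1 it was 0.18 (adjusted p = 0.016), and with array weights, which give that liver less influence, 0.16 (adjusted p = 0.043). *Auh* was called in 2 of 26 other limma settings, with adjusted p up to 0.39. *Ppara*-/- mouse 1 was the lowest *Ppara*-/- liver in 7 of 10 members (*Bckdha*, *Bckdhb*, *Bckdk*, *Hibadh*, *Ivd*, *Acad8* and *Auh*) and the highest in *Aldh6a1*. Without it 1 member was lower (*Hibch*) and 1 higher (*Auh*). Over all genes, 761 were lower and 682 higher with all 12 livers, 1147 and 1374 without that liver, and 1457 and 1286 with array weights.

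The largest difference among the members lay in the valine route. *Hibch*, the hydrolase that frees 3-hydroxyisobutyrate from coenzyme A, read 8.60, 8.49, 8.67, 8.50, 8.48 and 8.60 in *Ppara*-/- mice 1 to 6, against 8.90, 9.07, 8.97, 9.10, 9.15 and 8.81 in *Ppara*+/+ mice 1 to 6. The highest *Ppara*-/- liver, mouse 3, stayed 0.14 below the lowest *Ppara*+/+ liver, mouse 6. The means were 8.56 ± 0.08 in *Ppara*-/- livers and 9.0 ± 0.13 in *Ppara*+/+ livers, a difference of -0.44 (SE 0.06, 95% interval -0.57 to -0.31) or 1.36-fold lower, with adjusted p = 5.0e-04 by limma. The call held in 26 of 26 other limma settings, with differences of -0.48 to -0.41 and adjusted p of 9.0e-05 to 0.0058. Without *Ppara*-/- mouse 1 the difference was -0.45 (adjusted p = 5.0e-04), and with the sex score as a covariate -0.43 (adjusted p = 0.0023). By the exact Mann-Whitney test over all genes, whose smallest two-sided p for 6 against 6 is 0.0022, no gene passed and *Hibch* had adjusted p = 0.06. Its promoter follows from RefSeq (GRCm38.p6), the 250 bases before the start, 5′ to 3′ on the plus strand at chr1:52844788-52845037, capitals as for *Bckdhb*, shown because *Hibch* carried the clearest difference.
Hibch: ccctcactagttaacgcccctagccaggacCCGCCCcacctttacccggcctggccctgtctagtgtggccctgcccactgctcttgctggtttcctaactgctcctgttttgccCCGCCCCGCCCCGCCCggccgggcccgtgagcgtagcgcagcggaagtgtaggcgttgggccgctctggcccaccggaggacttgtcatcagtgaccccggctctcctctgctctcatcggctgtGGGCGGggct
With the 50 bases after the start, the window held 6 GC boxes, some of them sharing a base with the next, and 0 AGGTCA motifs. Its G and C content of 66.3% was the highest of the members' windows, beside a median of 52.7% over all promoters.

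The other 3 valine genes overlapped between genotypes. *Acad8*, the isobutyryl-CoA dehydrogenase that acts before the hydratase step leading to *Hibch*, spanned 8.67 to 8.92 in *Ppara*-/- livers and 8.80 to 9.11 in *Ppara*+/+ livers (difference -0.10, 95% interval -0.23 to 0.02, adjusted p = 0.36). *Hibadh*, the hydroxyisobutyrate dehydrogenase just downstream, was the steadiest member, at 11.52 to 11.64 in *Ppara*-/- livers and 11.52 to 11.63 in *Ppara*+/+ livers (difference 0.01, 95% interval -0.08 to 0.09, adjusted p = 0.94). *Aldh6a1*, the methylmalonate semialdehyde dehydrogenase that ends the route in propionyl-CoA, spanned 10.93 to 11.10 in *Ppara*-/- livers and 10.97 to 11.17 in *Ppara*+/+ livers (difference -0.06, 95% interval -0.16 to 0.04, adjusted p = 0.56). *Hibadh* was read from the brighter of its probesets, since a dimmer one stood near background at 5.30 ± 0.08 in *Ppara*-/- livers and 5.24 ± 0.42 in *Ppara*+/+ livers, and 2 further ones that also carry the symbol *Top2a* were not used.

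Of all members' promoters only 1 held a DR1 with at most 2 mismatches, and it belonged to a gene that was not called. Upstream of an *Aldh6a1* start, on the minus strand at chr12:84451111-84451139 (RefSeq, GRCm38.p6), the element begins at position -107 from the start, with capitals marking the 13 letters compared.
Aldh6a1: tccaccttTGACCAATCACCTattcccag
Among 32851 RefSeq promoters of 300 bases, 3.86% held a DR1 with at most 2 mismatches, 0.554% one with at most 1 and 0.0396% an exact one. The 10 members had 12 windows, of which 3 held AGGTCA (25%, beside 16.3% of all promoters), 6 held GGGCGG (50%, beside 35.7%) and 9 held CCAAT (75.0%, beside 37.4%), each searched on both strands. These letter matches are descriptions and no binding was measured.

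**Figure D2:**
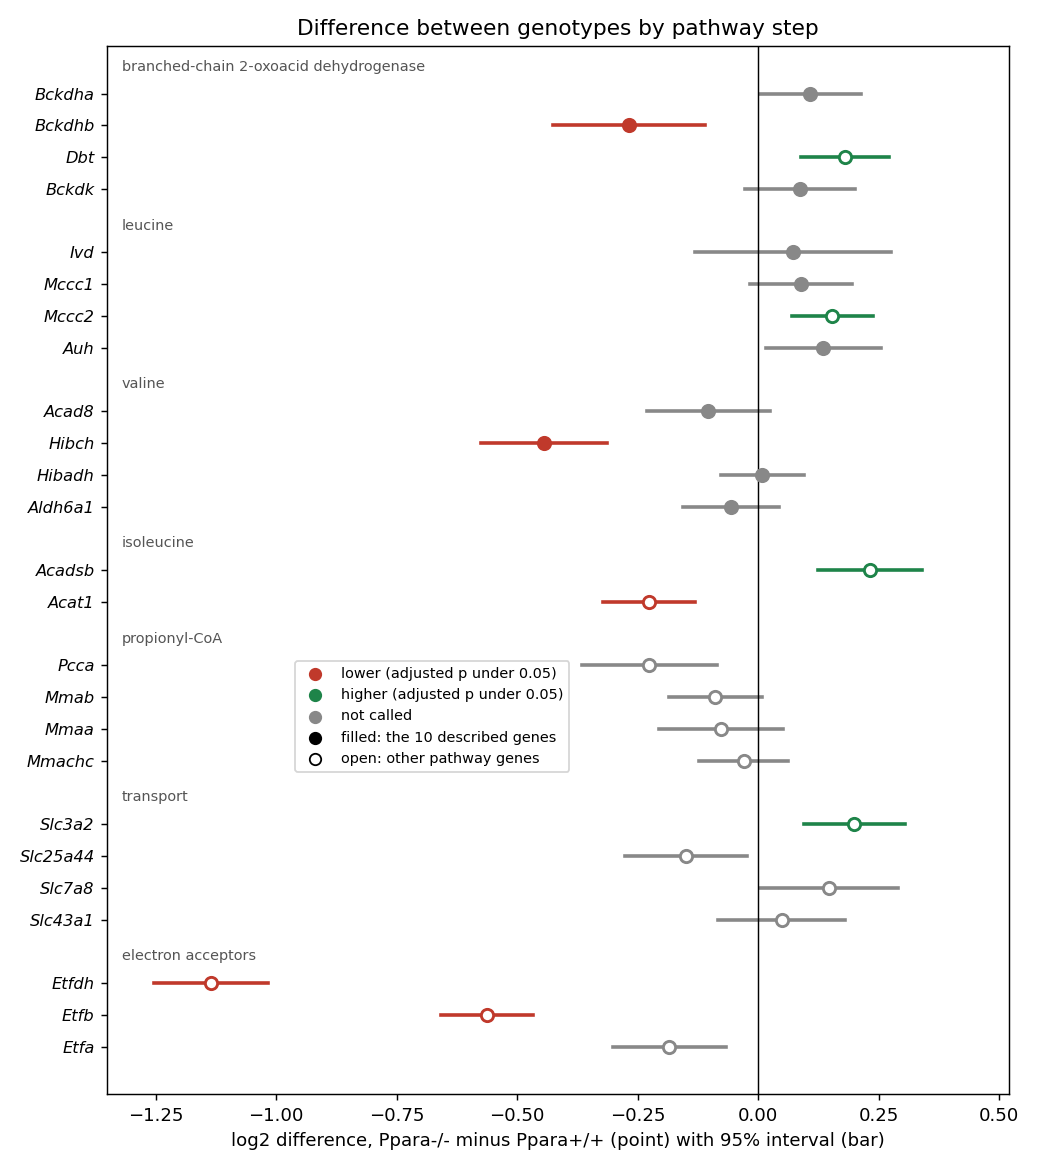
Difference between *Ppara*-/- and *Ppara*+/+ livers on the log2 scale (x axis) for genes grouped by pathway step (y axis), as points with 95% intervals as bars. Filled points are the 10 genes described and open points other genes of the pathway, coloured where the adjusted p was under 0.05. *Hibch* (-0.44) and *Bckdhb* (-0.27) lie left of 0, *Dbt* (0.18), *Mccc2* (0.15) and *Acadsb* (0.23) right of it, and *Etfdh* (-1.14) furthest left.

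Of 10 measured enzymes that complete the pathway around the members, 1 was lower, 3 were higher and 6 were not called, with a median difference of 0.03. Over all genes 3.82% were lower and 3.42% higher. The lower one was *Acat1*, the mitochondrial thiolase that splits 2-methylacetoacetyl-CoA in the isoleucine route and also acts in ketone body metabolism. It read 11.83 to 12.03 in *Ppara*-/- livers and 12.13 to 12.26 in *Ppara*+/+ livers, with no overlap (difference -0.23, SE 0.04, adjusted p = 0.0067). Higher beside *Dbt* and *Mccc2* was *Acadsb*, the short/branched-chain acyl-CoA dehydrogenase of isoleucine, at 9.63 to 9.86 in *Ppara*-/- livers and 9.38 to 9.63 in *Ppara*+/+ livers. These ranges met without overlapping (difference 0.23, SE 0.05, adjusted p = 0.012). *Acat1* and *Acadsb* held in 26 of 26 other limma settings, up to adjusted p of 0.017 and 0.037. The transaminases *Bcat1* and *Bcat2*, which open the pathway, differed by -0.01 and 0.07, and the hydratase *Echs1* and the dehydrogenase *Hsd17b10* by -0.06 and 0.11, none of them called.

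The acyl-CoA dehydrogenases of the pathway (*Ivd*, *Acad8* and *Acadsb*) pass electrons to the electron transfer flavoprotein, encoded by *Etfa* and *Etfb*, and from there to ubiquinone through *Etfdh*. *Etfdh* and *Etfb* had differences of larger size than any of the 3 dehydrogenases. *Etfdh* read 9.91 to 10.11 in *Ppara*-/- livers, all below *Ppara*+/+ livers, which averaged 11.14 ± 0.10, and was 2.20-fold lower (difference -1.14, SE 0.06, adjusted p = 9.0e-09). *Etfb* read 11.40 to 11.53 in *Ppara*-/- livers and 11.95 to 12.11 in *Ppara*+/+ livers, 1.48-fold lower (difference -0.56, adjusted p = 1.7e-06). *Etfa* had all *Ppara*-/- livers (10.86 to 10.93) below all *Ppara*+/+ livers (10.97 to 11.30), but its difference of -0.18 was not called (adjusted p = 0.057). It was called in 5 of 26 other limma settings, among them without *Ppara*+/+ mouse 6 (0.049), within a range of 0.022 to 0.14. The carriers serve fatty acid oxidation as well, so their levels are not particular to amino acid breakdown.

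The propionyl-CoA left by valine and isoleucine is carboxylated and passed to the citric acid cycle. Of 7 measured genes of that route 0 were called by limma, beside 3.82% lower and 3.42% higher over all genes. *Pcca*, the α subunit of propionyl-CoA carboxylase, came closest, at 9.59 to 9.95 in *Ppara*-/- livers and 9.86 to 10.11 in *Ppara*+/+ livers (difference -0.23, 95% interval -0.37 to -0.09, adjusted p = 0.052). It was called in 12 of 26 other limma settings, among them without *Ppara*-/- mouse 3 (0.039) or 6 (0.027), within a range of 0.02 to 0.12. The cobalamin genes *Mmab*, *Mmaa* and *Mmachc* differed by -0.09, -0.08 and -0.03. Of 6 transport genes 1 was higher, *Slc3a2*, the heavy chain that some large neutral amino acid transporters need to reach the cell surface (11.63 to 11.89 in *Ppara*-/- livers and 11.49 to 11.68 in *Ppara*+/+ livers, difference 0.20, adjusted p = 0.024). Its genotypes overlapped through *Ppara*-/- mouse 1, and the call held in 17 of 26 other limma settings, and was lost, among others, when any 1 of *Ppara*-/- mice 2, 4, 5 and 6 or *Ppara*+/+ mice 1, 2 and 4 was left out (0.051 to 0.06). *Slc25a44*, a mitochondrial carrier of branched-chain amino acids, differed by -0.15, and the transporters *Slc7a8* and *Slc43a1* by 0.15 and 0.05, none of them called.

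Mitochondrial genes outside the pathway were also lower in part, where 3.82% of all genes were lower and 3.42% higher. Of 9 measured genes chosen to stand for mitochondrial content, 2 were lower, the chaperonin *Hspd1* (-0.25, adjusted p = 0.0028) and the isocitrate dehydrogenase subunit *Idh3a* (-0.35, adjusted p = 2.7e-04), 0 were higher, and all 9 differences were negative, with a median of -0.10. Their summed linear signal was 14959 to 15368 in *Ppara*-/- livers and 16335 to 17156 in *Ppara*+/+ livers, with no overlap. Of 6 genes of the sister complexes, the pyruvate and 2-oxoglutarate dehydrogenases, 1 was lower (*Dlst*, at -0.15) and 5 were not called, with a median of -0.03. The part of mitochondrial content in the values of *Hibch* and *Bckdhb* was not tested. With the summed signal of the 10 members themselves, *Ppara*-/- livers spanned 10666 to 11904 and *Ppara*+/+ livers 11147 to 12160, which overlapped.

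**Figure D3:**
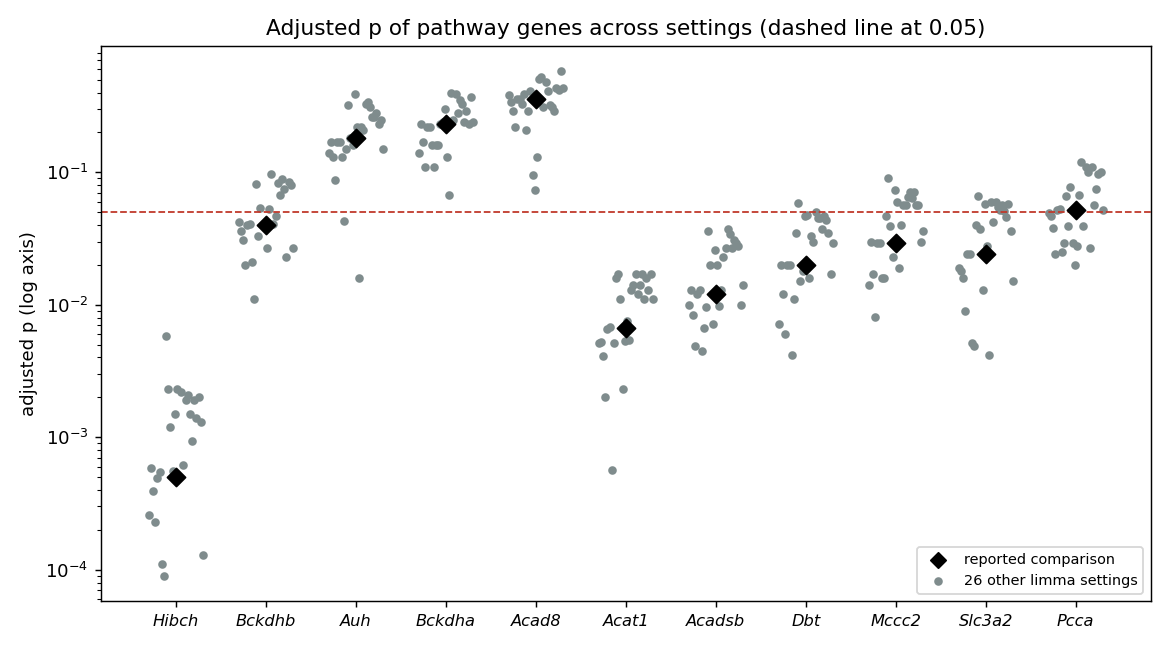
Adjusted p (y axis, log scale, dashed line at 0.05) of pathway genes (x axis). Diamonds mark the reported comparison and grey points 26 other limma settings on 11 or 12 livers. All points of *Hibch* lie at or under 0.0058, whereas those of *Bckdhb* lie on both sides of the line, from 0.011 to 0.097.

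Fetuses also carry an animal number in the labels, and *Ivd* followed it, a pattern seen after the values were known. *Ivd* read 10.27 to 10.55 in the 6 highest numbers and 10.02 to 10.22 in the 6 lowest, both genotypes together and with no overlap. All of the highest numbers lay above all of the lowest in 0.466% of all genes, and the opposite order was not counted. With genotype in the limma fit, the highest numbers exceeded the lowest by 0.31 for *Ivd* (SE 0.06, adjusted p = 0.078), which was not called, and 0 of 19938 genes were called in that comparison (0%), with 2485 at an unadjusted p under 0.05. *Acad8* differed by 0.17 (adjusted p = 0.15) in the same fit and *Hibch* by -0.01 (adjusted p = 0.99). The sources used here do not say what the numbers stand for, such as litters, and the sexes are uneven between them. With the sex score also in the fit, the *Ivd* value was again 0.31 (SE 0.08, adjusted p = 0.10) and 22 genes were called higher in the highest numbers.

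The sign of the *Hibch* difference was the same in both ranges of animal numbers, but its call was not. Within the 6 highest numbers (4 *Ppara*-/- and 2 *Ppara*+/+ livers) it was -0.42 (limma adjusted p = 0.13), and within the 6 lowest (2 *Ppara*-/- and 4 *Ppara*+/+ livers) -0.46 (adjusted p = 0.043), with no overlap in either. *Bckdhb* was called in neither, differing by -0.19 (adjusted p = 0.45) within the highest numbers, where the genotypes were parted only by 10.83 against 10.84, and by -0.41 (adjusted p = 0.17) within the lowest.

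**Figure D4:**
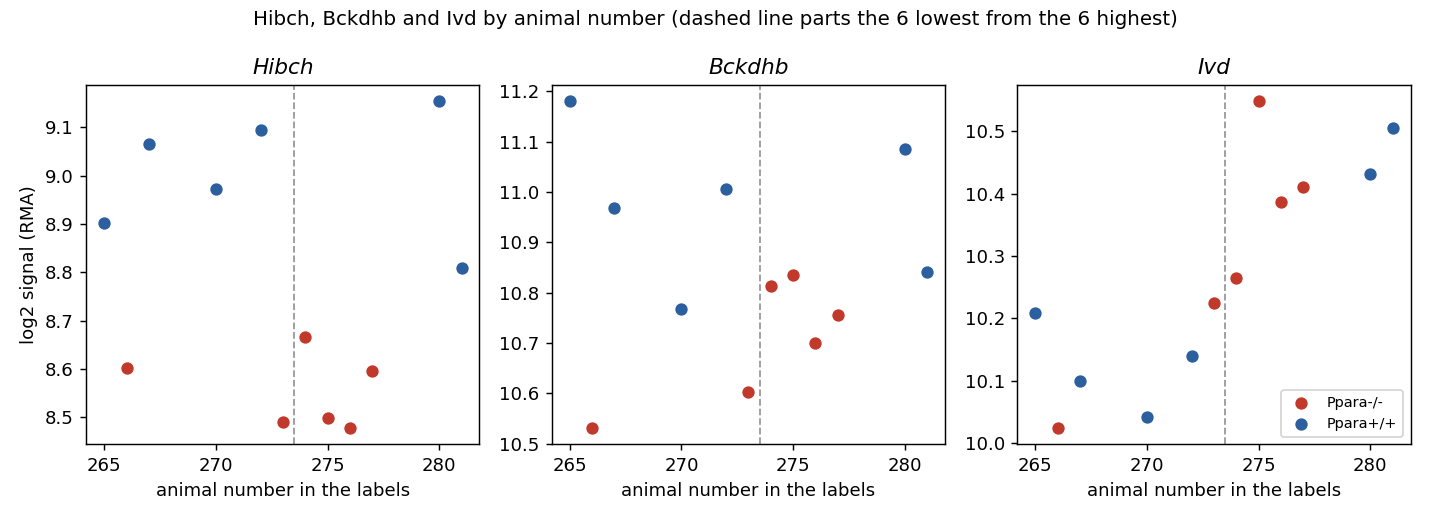
Log2 RMA signal (y axis) of *Hibch*, *Bckdhb* and *Ivd* against the animal number in the labels (x axis), 1 point per liver, with a dashed line between the 6 lowest and the 6 highest numbers. For *Hibch* the difference is -0.42 right of the line and -0.46 left of it. Its genotypes part over all livers, so they part on both sides of any line. *Ivd* is 10.27 to 10.55 right of the line and 10.02 to 10.22 left of it, both genotypes together.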

How the data were processed

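RNA from 12 whole E19.5 livers (6 per genotype, RNA integrity number above 8) was hybridised to 1-colour arrays. The deposited values are log2 signals that the authors made with RMA, which corrects background, normalizes quantiles between arrays and summarises probes; the sources used here name neither its version nor a genome build. Array medians were 6.71 to 6.75 and correlations between arrays 0.9882 to 0.9955. The number of arrays limits the precision, and p-values set a difference against the spread between these livers. Litter could not be put in the fits, so livers that share a litter were treated as independent.

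Of 35556 probesets, 21789 carried 1 gene symbol in the platform annotation, 1621 several and 12146 none, and 21698 of the named ones matched RefSeq by gene ID. The brightest probeset stood for each of 19938 genes. limma 3.58.1 (lmFit, eBayes, no covariates) in R 4.3.3 gave two-sided p-values, adjusted by the Benjamini-Hochberg method over all genes, threshold 0.05. The fit was tested on simulated data with changes planted in some genes. Among 19938 genes it recovered 10.4% of 67 planted log2 changes of 0.2, 85.1% of 67 of 0.5 and 97.0% of 66 of 1.0. Most changes as small as 0.2 were thus missed in the simulation. Far more genes were called in the livers themselves (761 lower and 682 higher), which loosens the p-value that passes the adjustment. These shares therefore need not hold there, and *Dbt* at 0.18 and *Mccc2* at 0.15 were called. Named were the 10 members, *Ppara*, and, of the lists of other enzymes, propionyl-CoA route, transport and electron carriers, every called gene plus the 4 with the smallest p, with markers and a few others named after their values were seen. The members and the 15 gene lists (98 of 106 genes measured) were chosen with earlier results of these data known. Alternatives covered normalization, filters on dim genes, probeset choice, array weights, covariates for sex, erythroid level and animal number, and leaving out each liver. Promoters came from RefSeq (GRCm38.p6), 300 bases each. Proteins were not analysed here.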

Additional observations from a re-analysis of the deposited data

Results flagged for a closer look

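Of 52 groups of 6 livers tested for 1 distant liver (26 named genes in each genotype), 3 were past the critical value of Dixon's test, and chance flags about 1 in 20. *Bckdk* read 8.85 in *Ppara*-/- mouse 1, beside 9.01 to 9.10 in the other 5 *Ppara*-/- livers. *Acat1* read 11.83 in the same mouse, beside 11.95 to 12.03 in the other 5. *Dbt* read 11.20 in *Ppara*-/- mouse 4, above the 11.06 to 11.11 of the other 5.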

How the results depend on the processing

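*Hibch* kept its direction and its call in the 26 limma settings on 11 or 12 livers. The count of lower members was 1 with mouse number as a replicate block (*Bckdhb* lost, adjusted p = 0.081, and *Hibch* kept, 0.0058) or with the erythroid score (*Hibch*), 1 to 2 with 1 liver left out, 1 within the 6 lowest animal numbers alone, and 0 within the 6 highest alone and by the exact Mann-Whitney test. The count of higher members was 1 with array weights (*Auh*) and 0 to 1 with 1 liver left out. Over all genes, 761 lower and 682 higher became 1457 and 1286 with array weights, 449 and 401 with the sex score, and 514 and 422 with animal numbers as a block. They became 163 and 30 within the 6 lowest numbers alone, 106 and 117 within the 6 highest alone, and 0 and 0 by the Mann-Whitney test (3686 at an unadjusted p under 0.05, smallest adjusted p 0.06). With 1 liver left out they ranged over 447 to 1147 and 384 to 1374. With mouse number as a replicate block they were 823 and 796. The labels do not say that mouse numbers link livers across genotypes, and the deviations of same-numbered mice correlated at 0.0194 to 0.39. *Ppara*-/- mice 1, 3 and 6 correlated best with their own number, but *Ppara*+/+ mouse 6 was also the best match of *Ppara*-/- mice 4 and 5. The fits within ranges of animal numbers were chosen after the data were seen. No called result changed direction, while the uncalled differences of *Ivd* (-0.03 to 0.13) and *Hibadh* (-0.01 to 0.06) crossed 0. Small differences are limited by the number of arrays, and the causes were not tested.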
